A study of Mus musculus with 10 samples.

Results

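The genes described here are the MHC class II genes of the mouse and Ciita, 10 of the 17737 genes in the deposited count table. They were chosen by name: the chains of the classical class II molecules (H2-Aa, H2-Ab1 and H2-Eb1), the invariant chain gene Cd74, the chains of the peptide editor DM (H2-DMa, H2-DMb1 and H2-DMb2), the chains of its inhibitor DO (H2-Oa and H2-Ob), and the transactivator gene Ciita. Bulk RNA was sequenced from 5 tumors that overexpressed IL-18 D69A, in which an alanine replaces an aspartate, and from 5 tumors that overexpressed IL-18 WT. All 10 tumors grew from cells of the mouse melanoma line B16-F10 placed under the skin of the right flank of C57BL/6 mice, and were collected on day 11. The D69A tumors carry the numbers 1 to 5 and the WT tumors the numbers 2 to 6, and the labels state no pairing by number. The labels give neither the promoter of the transgene, nor whether a line was 1 clone, nor the age of the mice. Whether every tumor had a mouse of its own is not stated there, so the spread behind the p-values is that between the samples sequenced.

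MHC class II molecules carry peptides from endosomes to the cell surface, where CD4 T cells read them. In the endoplasmic reticulum the α and β chains bind the invariant chain, which blocks the groove and steers the complex to endosomes. There the invariant chain is cut down to a short peptide, DM exchanges that peptide for others, and DO holds DM back. Dendritic cells, macrophages and B cells make class II constitutively or on activation, and interferon-gamma can induce it in other cells through CIITA. CIITA does not bind DNA itself. It is recruited by the RFX, CREB and NF-Y factors that sit on the X and Y boxes of class II promoters.

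The promoter letters below are shown because they are where that shared control acts, and because they let the genes of the group be seen side by side. Windows from 250 bases before to 50 bases after the gene start were found for 7 of the 10 genes (8 windows, RefSeq, GRCm38.p6). H2-Ab1, Cd74 and Ciita are named only. In 6 of the 7 genes, the letters AAC were followed, 22 to 30 bases on, by TGATTGG, the core of a Y box, and in 4 of them the AAC opened an X-box-like run, in which any pair of bases and then ATGATG followed it. Both strands were searched. Capitals mark AAC, the ATGATG that completes the run where it is present, and TGATTGG. Each stretch is given 5′ to 3′ on the strand of its gene.
H2-Oa, chr17:34092291-34092348, plus strand: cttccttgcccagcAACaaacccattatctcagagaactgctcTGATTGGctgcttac
H2-DMb2, chr17:34145114-34145171, plus strand: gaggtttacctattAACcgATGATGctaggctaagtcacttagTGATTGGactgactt
H2-DMb1, chr17:34153085-34153142, plus strand: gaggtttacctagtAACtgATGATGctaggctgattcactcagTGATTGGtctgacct
H2-Ob, chr17:34238806-34238860, plus strand: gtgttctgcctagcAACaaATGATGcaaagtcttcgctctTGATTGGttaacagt
H2-Aa, chr17:34287859-34287916, minus strand: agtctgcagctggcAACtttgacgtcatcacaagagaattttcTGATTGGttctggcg
H2-Eb1, chr17:34305764-34305820, plus strand: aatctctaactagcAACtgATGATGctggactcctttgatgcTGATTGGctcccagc

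The gap between AAC and TGATTGG was 26 bases in H2-Oa, H2-DMb2, H2-DMb1 and H2-Aa, 25 bases in H2-Eb1 and 23 bases in H2-Ob. TGATTGG began between 45 bases (H2-Oa) and 92 bases (H2-DMb2) before the gene start. Neither of the 2 windows of H2-DMa held these letters. Of 32851 promoter windows of the mouse genome, 7.82% held TGATTGG, 0.137% held the X-box-like run and 0.922% held the spaced pair. Both the pair and the run were found in 4 windows, 0.0122% of all, and these were the windows of H2-DMb1, H2-DMb2, H2-Eb1 and H2-Ob. The letters and the distance were chosen after the promoters of these genes had been read, so the shares describe the windows and test nothing. A match of letters is not a bound site.

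Total counts lay between 34400949 and 37578722 in D69A tumors and between 25904345 and 37556163 in WT tumors, so that 3 counts came to between 0.0798 and 0.116 CPM (the count scaled to library size, by edgeR's TMM factors elsewhere in the text). Melanoma genes marked the tissue as labelled, and 3 of 5 were called higher in D69A tumors, where 18.8% of all tested genes were. The summed level of Mlana, Pmel, Tyr, Dct and Mitf was 14730 to 20510 CPM in D69A tumors and 8465 to 12590 CPM in WT tumors. The 5 skeletal muscle markers varied within the groups (14.1 to 410.6 CPM summed in D69A, 14.1 to 1185 CPM in WT) and did not pass the threshold used below (adjusted p = 0.153 to 0.339). Il18 stood at 25.2 to 30.4 CPM in D69A and 27.02 to 32.97 CPM in WT tumors (adjusted p = 0.266), and its count does not tell the forms apart. The tissue also held host cells. Ptprc, which encodes the leukocyte antigen CD45, stood at 52.1, 29.3, 18.1, 24.4 and 22.6 CPM in D69A tumors 1 to 5, against 66.6, 205.1, 125.0, 184.6 and 105.5 CPM in WT tumors 2 to 6. It was 4.69-fold lower in D69A tumors (adjusted p = 0.00096 by the quasi-likelihood test of edgeR, Benjamini-Hochberg over 13798 genes, which gave the adjusted p of every single gene in the text). In bulk tissue, fewer cells of a type and less RNA per cell cannot be told apart.

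All 10 genes were lower in D69A tumors. All 10 passed the filter on low counts and the threshold of 0.05, where 24.7% of all tested genes were called lower. In each of the 10 the highest D69A tumor lay below the lowest WT tumor, which held for 17.4% of tested genes with the D69A group as the lower one. The decreases ran from 2.93-fold in H2-DMb1 to 7.38-fold in H2-Ob. Their median log2 fold change was -2.56, beside 0.002 over all tested genes.

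**Figure D1:**
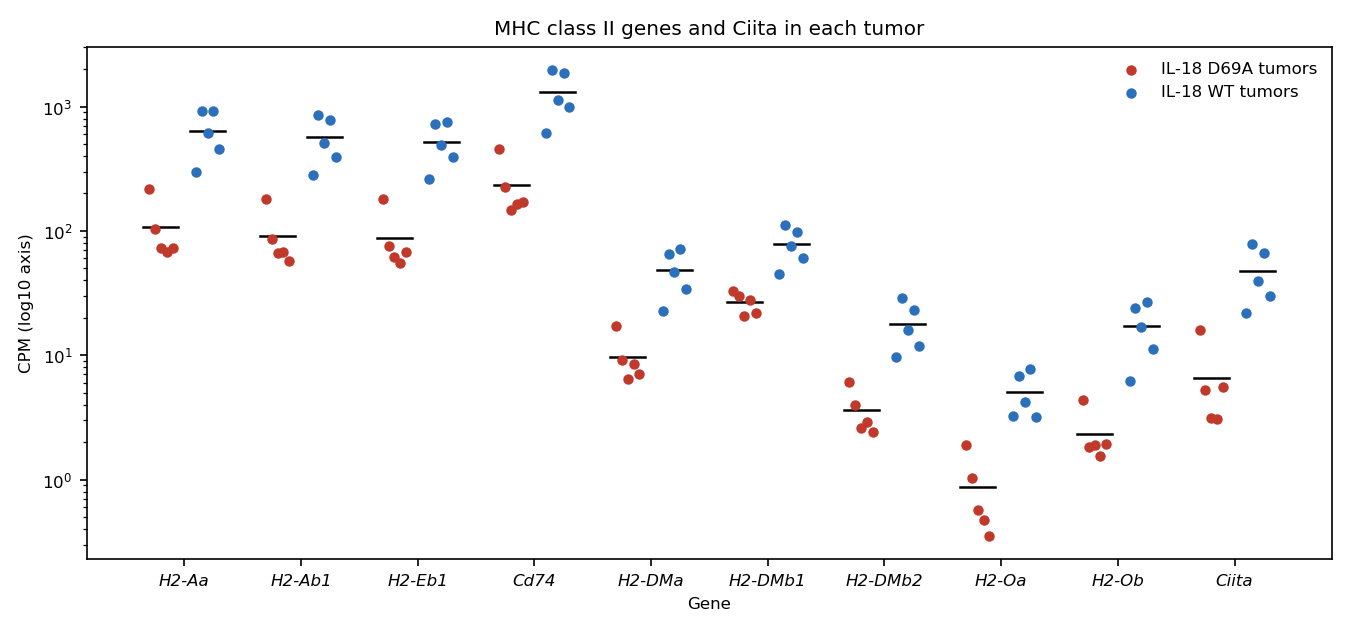
Level of each class II gene and of Ciita, in CPM on a log10 axis, with 1 point per tumor (D69A left of WT) and a bar at the mean of each group of 5. No D69A point reaches the lowest WT point of the same gene, and the highest D69A point is tumor 1 throughout.

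The classical chains present the peptide. H2-Aa, the α chain of I-A, stood at 217.8, 103.0, 72.4, 68.0 and 72.9 CPM in D69A tumors 1 to 5, against 296.3, 921.6, 607.9, 921.3 and 451.5 CPM in WT tumors 2 to 6. D69A tumor 1 was about 2 times the next D69A tumor and still below WT tumor 2, the lowest of its group. H2-Aa averaged 106.8 ± 63.6 CPM in D69A and 639.7 ± 279.8 CPM in WT tumors (SD, n = 5 each), a log2 fold change of -2.58 (SE 0.41, adjusted p = 0.001).

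H2-Ab1, the β chain of I-A, had 181.9, 85.3, 66.3, 67.6 and 57.0 CPM in D69A tumors 1 to 5, against 281.5, 860.3, 506.9, 786.8 and 390.5 CPM in WT tumors 2 to 6. H2-Eb1, the β chain of I-E, had 178.9, 75.2, 62.2, 55.1 and 67.5 CPM in D69A tumors, against 261.2, 724.0, 488.6, 747.6 and 389.4 CPM in WT tumors in the same order. Both groups kept apart in both genes, with tumor 1 again high among D69A tumors and tumor 2 low among WT tumors. The log2 fold change was -2.62 (SE 0.40) for H2-Ab1 and -2.57 (SE 0.39) for H2-Eb1, with an adjusted p of 0.000848 for each. The C57BL/6 strain is known to make no I-E α chain, so H2-Eb1 RNA in these mice has no partner at the surface. H2-Ea-ps, the I-E α locus of this annotation, was too low to be tested (8 counts over all 10 tumors).

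Cd74, the most abundant gene of the group, encodes the invariant chain. It stood at 458.9, 227.3, 147.9, 163.9 and 169.5 CPM in D69A tumors 1 to 5, against 616.9, 1958, 1128, 1867 and 990.8 CPM in WT tumors 2 to 6. The order of the tumors was close to that of the classical chains, and the groups did not overlap. Cd74 averaged 233.5 ± 129.5 CPM in D69A and 1312 ± 580 CPM in WT tumors (SD, n = 5 each), a log2 fold change of -2.49 (SE 0.40, adjusted p = 0.000994).

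DM is the editor that frees the groove. H2-DMa, its α chain, had 17.2, 9.16, 6.43, 8.43 and 7.03 CPM in D69A tumors 1 to 5, against 22.7, 65.6, 46.7, 71.6 and 33.9 CPM in WT tumors 2 to 6. H2-DMb2, one of a pair of β chain genes, had 6.12, 3.98, 2.58, 2.90 and 2.42 CPM in D69A tumors, against 9.69, 28.7, 16.1, 23.1 and 11.8 CPM in WT tumors in the same order. These genes fell by nearly the same factor, with log2 fold changes of -2.31 for H2-DMa (SE 0.36, adjusted p = 0.000918) and -2.31 for H2-DMb2 (SE 0.35, adjusted p = 0.000873). Of H2-DMa's exonic length, 10.4% lies opposite exons of Brd2, a chromatin reader, and the use of strand in counting is not given in the sources used here. Brd2 itself stood at 254.0 CPM in D69A and 259.9 CPM in WT tumors (adjusted p = 0.643).

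H2-DMb1, the other β chain gene, fell least of the group. It had 33.0, 29.9, 20.8, 27.9 and 21.7 CPM in D69A tumors 1 to 5, against 45, 110.7, 75.0, 98.7 and 60.8 CPM in WT tumors 2 to 6. The D69A tumors lay close together, the highest at 1.59 times the lowest, where that factor was 2.53 to 5.38 for the other genes of the group. The log2 fold change was -1.55 (SE 0.23, adjusted p = 0.000848). H2-DMb1 and H2-DMb2 share 369 stretches of 50 bases, 27.2% of those in H2-DMb1 and 21.2% of those in H2-DMb2, so reads can be split between them in an uncertain way.

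DO binds DM and keeps it from exchanging peptides, and is known from B cells and some dendritic cells. H2-Oa, its α chain, was the lowest gene of the group per length, with 1.90, 1.03, 0.571, 0.473 and 0.353 CPM in D69A tumors 1 to 5, against 3.26, 6.86, 4.196, 7.82 and 3.18 CPM in WT tumors 2 to 6. H2-Ob, its β chain, had 4.33, 1.84, 1.89, 1.54 and 1.93 CPM in D69A tumors, against 6.20, 24.1, 16.8, 27.01 and 11.2 CPM in WT tumors in the same order. WT tumor 6 was the lowest WT tumor for H2-Oa and WT tumor 2 for the other 9 genes. The log2 fold change was -2.54 for H2-Oa (SE 0.47, adjusted p = 0.00184) and -2.88 for H2-Ob (SE 0.43, adjusted p = 0.000822). Of H2-Oa's exonic length, 22.8% lies opposite the antisense gene BC051537, which was not analysed here.

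Ciita, the transactivator, had 15.98, 5.29, 3.12, 3.05 and 5.54 CPM in D69A tumors 1 to 5, against 21.7, 78.0, 39.3, 67.0 and 29.99 CPM in WT tumors 2 to 6. D69A tumor 1 was nearly 3 times the next D69A tumor, and the D69A group ranged over a factor of 5.25. Ciita averaged 6.60 ± 5.38 CPM in D69A and 47.2 ± 24.3 CPM in WT tumors (SD, n = 5 each), a log2 fold change of -2.83 (SE 0.52, adjusted p = 0.00172). Without D69A tumor 1 the log2 fold change was -3.46, a decrease over 1.5 times larger. Of Ciita's exonic length, 3.5% lies opposite the gene Dexi.

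Per length, in CPM per kilobase of mRNA (RPKM), the order of the 10 genes was the same in both groups. Cd74 was highest, at 165.6 RPKM in D69A and 930.7 RPKM in WT tumors, followed by H2-Aa, H2-Ab1, H2-Eb1, H2-DMb1, H2-DMa, H2-DMb2, Ciita, H2-Ob and H2-Oa. H2-Oa was lowest, at 0.795 RPKM in D69A and 4.65 RPKM in WT tumors. Each gene down to H2-DMb2 was above the next in all 5 D69A and all 5 WT tumors. Ciita was above H2-Ob in 3 D69A and 5 WT tumors, and H2-Ob above H2-Oa in 3 D69A and 4 WT tumors, so the order of these genes is not settled beyond the spread between tumors.

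**Figure D2:**
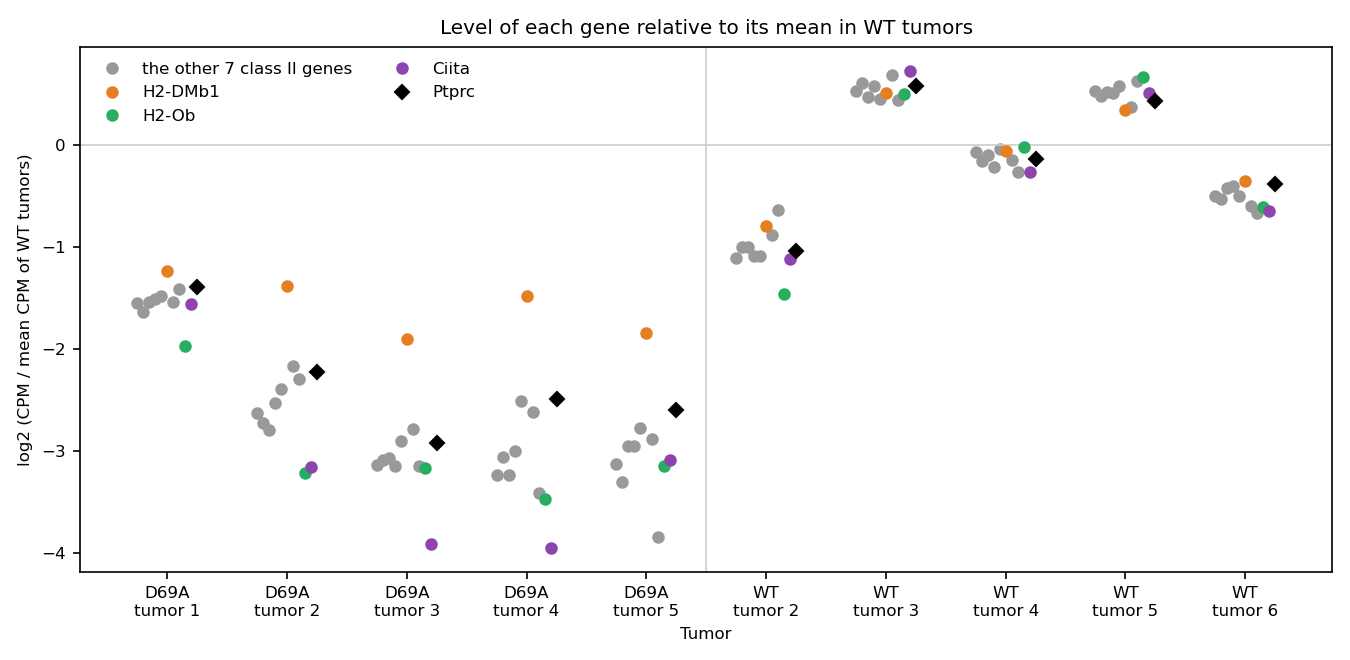
Level of each gene in each tumor as log2 of its CPM over the mean CPM of the WT tumors, with D69A tumors on the left, H2-DMb1, H2-Ob and Ciita in color and Ptprc as a black diamond. H2-DMb1 lies above the other class II genes in every D69A tumor, and the level of the class II genes as a whole is highest among D69A tumors in tumor 1 and lowest among WT tumors in tumor 2.

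The genes moved together from tumor to tumor within a group. After the mean of each group was subtracted, the 45 pairs of genes had Pearson r between 0.763 (H2-DMb1 with H2-Oa) and 0.991 (H2-Aa with H2-Eb1 and with Cd74) over the 10 tumors, with a median of 0.936. These points share libraries and the leukocyte content of each tumor, so they are given as a description. By their geometric mean relative to the WT mean, the 10 genes stood at 0.342, 0.173, 0.123, 0.125 and 0.126 in D69A tumors 1 to 5, and at 0.494, 1.46, 0.910, 1.43 and 0.694 in WT tumors 2 to 6.

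Ratios within a tumor do not depend on the scaling of libraries, and they show where the group did not fall as one. Counts per kilobase were compared as log2 ratios, using the mean log2 value where a side held several genes, with a two-sided exact permutation test that took every assignment of the tumors to groups and with p-values adjusted over 17 ratios. The smallest p this design allows is 0.00794. Of the 17 ratios, 9 passed the threshold. None of the 9 passed with medians in place of means (adjusted p = 0.0899 for each) or without the 3 tumors highest in muscle markers (D69A tumor 1, WT tumors 3 and 4; adjusted p = 0.0607, and 0.0971 for the classical chains to Ptprc), and all kept their direction. With those 3 tumors left out, 4 D69A against 3 WT tumors leave few assignments. With medians, many assignments give the same difference, so the smallest possible p is larger than with means. Neither of these p-values says much about stability.

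The inhibitor fell further than the editor. The ratio of DO to DM was 0.166, 0.118, 0.131, 0.0863 and 0.103 in D69A tumors 1 to 5, against 0.184, 0.190, 0.192, 0.233 and 0.180 in WT tumors 2 to 6. All D69A tumors lay below all WT tumors. The log2 ratio averaged -3.08 ± 0.36 in D69A and -2.36 ± 0.15 in WT tumors (SD, n = 5 each), a difference of -0.72 (exact permutation p = 0.00794, adjusted p = 0.0225). The adjusted p was 0.0506 without WT tumor 4, 5 or 6. With H2-DMb1 left out of DM, an alternative chosen after the data were seen, the difference was -0.46 (adjusted p = 0.0225).

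By chain, H2-Ob against the DM β chains differed by -0.91 (adjusted p = 0.0337 by exact permutation), and H2-Oa against H2-DMa by -0.40, which did not pass (adjusted p = 0.279). The ratio of H2-Ob to the DM β chains also came to an adjusted p of 0.0506 without D69A tumor 2, 4 or 5 or WT tumor 4, 5 or 6. H2-Oa against H2-Ob differed by 0.11 (adjusted p = 0.776), with the sign turned to -0.07 without D69A tumor 2.

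DM in turn fell less than the classical chains it serves. The log2 ratio of DM to the classical chains was -3.38 ± 0.30 in D69A and -3.98 ± 0.07 in WT tumors (SD, n = 5 each; difference 0.60, exact permutation adjusted p = 0.0225), with no overlap. Without H2-DMb1 it differed by 0.34 (adjusted p = 0.0225). H2-DMb2 against H2-DMb1 differed by -0.78 (adjusted p = 0.0225), and H2-DMa against both β chains by -0.40 (adjusted p = 0.045). The ratio of H2-DMa to the β chains had an adjusted p between 0.0613 and 0.081 in 7 of the 10 analyses that left out 1 tumor (D69A tumor 2, 3, 4 or 5, WT tumor 4, 5 or 6). The ratios of DM to the classical chains and of H2-DMb2 to H2-DMb1 had an adjusted p of 0.0506 without WT tumor 4, 5 or 6.

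DO, Cd74 and Ciita did not differ detectably from the classical chains in how far they fell. DO differed from them by -0.12 on the log2 scale (adjusted p = 0.218), Cd74 by 0.12 (adjusted p = 0.11) and Ciita by -0.35 (adjusted p = 0.202). The Cd74 ratio passed without D69A tumor 3, at 0.16 (adjusted p = 0.045). H2-Aa against H2-Ab1 differed by 0.03 and H2-Eb1 against H2-Ab1 by 0.03 (adjusted p = 0.774 and 0.81). The sign of the first turned without D69A tumor 5 (-0.008), and that of the second without D69A tumor 5 (-0.051) or WT tumor 3 (-0.01). A p that misses the threshold does not show that these genes moved in equal measure.

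**Figure D3:**
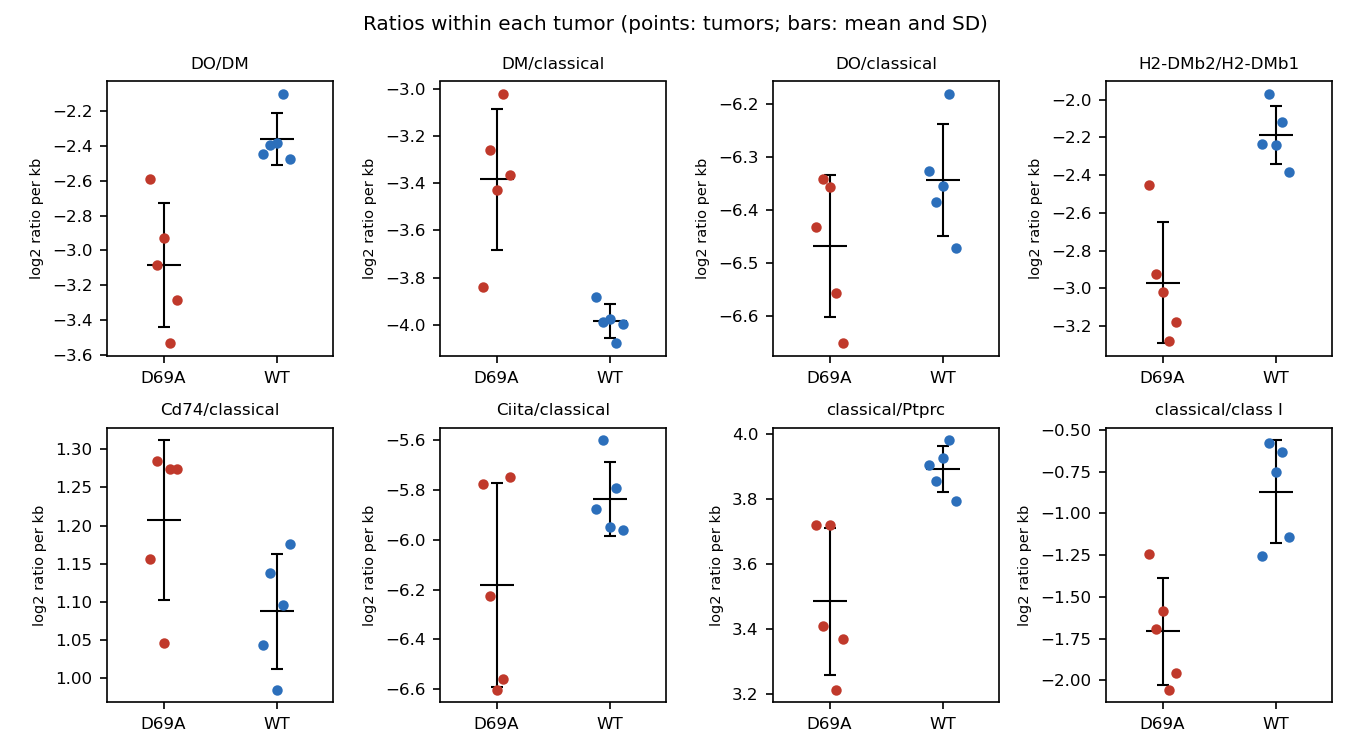
Log2 ratios of counts per kilobase within each tumor for 8 of the 17 ratios, D69A left of WT, with 1 point per tumor and bars at the mean and SD of each group of 5. The axes do not start at 0 and differ between panels. The groups do not overlap for DO to DM, DM to classical, H2-DMb2 to H2-DMb1 and classical to Ptprc.

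Set against other cell and pathway genes, the classical chains fell further than Ptprc. The log2 ratio of the classical chains to Ptprc was 3.49 ± 0.23 in D69A and 3.89 ± 0.07 in WT tumors (SD, n = 5 each), a difference of -0.41 (exact permutation adjusted p = 0.0225). Against the class I genes H2-K1, H2-D1 and B2m, which all nucleated cells can express, the classical chains differed by -0.84 (adjusted p = 0.0337). Those 3 genes did not fall alike: the log2 fold change was -2.52 for H2-K1, near that of the classical chains, -1.63 for H2-D1 and -1.14 for B2m. Against the macrophage genes Adgre1, Csf1r, C1qa and Mertk the classical chains differed by -1.34, and by -0.93 without Mertk (adjusted p = 0.0225 for both). Against the dendritic cell genes Flt3, Zbtb46 and Itgax they differed by -0.64 (adjusted p = 0.0225), and that call was lost without Zbtb46 (difference -0.09, adjusted p = 0.607). Each of these 4 ratios had an adjusted p of 0.0506 without WT tumor 4, 5 or 6, and the class I ratio also without D69A tumor 2, 4 or 5. Ciita against Nlrc5, the transactivator of class I, differed by -1.004 (adjusted p = 0.054) and passed without D69A tumor 1 (-1.23, adjusted p = 0.0169).

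Cell type markers moved with the class II genes, and their part in the decrease was not tested. The ratios above only compare how far chosen genes fell. Beside the counts of each list below, 24.7% of all tested genes were called lower. All 5 conventional dendritic cell (cDC) markers were lower, with a summed level of 28.4 to 56.0 CPM in D69A and 69.9 to 199.5 CPM in WT tumors. All 5 markers of the cDC1 subset were lower (53.3 to 115.0 CPM in D69A, 137.3 to 480.6 CPM in WT), with a median log2 fold change of -2.90. Xcr1, a chemokine receptor of that subset, was 9.76-fold lower (adjusted p = 0.00142). All 5 cDC2 markers (65.9 to 107.4 CPM in D69A, 119.8 to 240.2 CPM in WT) and 6 of 7 macrophage markers (182.9 to 368.7 CPM in D69A, 407.9 to 1052 CPM in WT) were lower, with medians of -1.62 and -1.65. Mertk, a macrophage receptor for dying cells, stood at 14.3 CPM in D69A and 14.8 CPM in WT tumors (adjusted p = 0.744).

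Of the remaining myeloid lists, 4 of 5 mature dendritic cell markers (283.1 to 362.9 CPM summed in D69A, 365.3 to 551.8 CPM in WT), 4 of 5 plasmacytoid dendritic cell markers (264.8 to 462.2 CPM in D69A, 628.8 to 781.1 CPM in WT) and 3 of 4 monocyte markers (31.0 to 75.6 CPM in D69A, 131.3 to 335.2 CPM in WT) were lower. Most of the mature dendritic cell sum was Fscn1 (mean 278.2 CPM in D69A, 267.3 CPM in WT). Most of the plasmacytoid sum was Bst2 (mean 253.4 CPM in D69A, 629.4 CPM in WT), while Siglech averaged 1.42 CPM in D69A and 4.86 CPM in WT tumors. Ccr7, which guides mature dendritic cells to lymph nodes, was 6.85-fold lower (adjusted p = 0.00097), while Fscn1, Tcf4 and Chil3 did not pass (adjusted p = 0.627, 0.897 and 0.102). Non-leukocyte hosts of inducible class II moved too: all 4 endothelial markers were lower (42.6 to 69.4 CPM in D69A, 79.2 to 130.8 CPM in WT) and so were all 4 fibroblast markers (91.6 to 378.3 CPM in D69A, 690.6 to 1662 CPM in WT).

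Markers of B cells, a known source of DO, were low in every tumor. The 7 B cell markers summed to 0.811 to 1.23 CPM in D69A and 1.75 to 5.14 CPM in WT tumors, and 5 of them were too low to be tested. Cd79b, part of the B cell receptor, was 4.02-fold lower (adjusted p = 0.0258), and lost that call without D69A tumor 4 or 5 or WT tumor 3. Pax5 did not pass (adjusted p = 0.259), and was called lower without WT tumor 4.

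None of the genes for the RFX, CREB and NF-Y factors, or for the acetyltransferases Crebbp, Ep300 and Kat2b, was called lower. Of 10 genes of this promoter complex, none was called lower and 1 was called higher, where 43.5% of tested genes were called in either direction, and their median log2 fold change was 0.11. DESeq2 and limma-voom also called none lower, and 1 (Kat2b) was lower at an unadjusted p under 0.05 in edgeR. Rfx5, a DNA-binding subunit of RFX whose loss causes class II deficiency in humans, stood at 21.4 CPM in D69A and 24.1 CPM in WT tumors (adjusted p = 0.102). Rfxap, Rfxank, Nfya, Nfyb, Nfyc, Creb1, Crebbp and Kat2b did not pass either. Ep300, a histone acetyltransferase, was 1.31-fold higher (adjusted p = 0.00634). Some of these calls turned on the setting: in 20 alternatives Crebbp, a histone acetyltransferase gene, was called higher in 6 (RLE scaling, DESeq2 and leaving out D69A tumor 1 or 3 among them) and Creb1 in 1 (without D69A tumor 3). Kat2b, a further acetyltransferase gene, was called lower in 3 (upper quartile scaling, library size only and without WT tumor 2).

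Upstream of Ciita, 10 of 14 genes were lower (24.7% of all tested genes) and 4 did not pass, with a median log2 fold change of -1.17. Ifng, the inducer, stood at 0.374 CPM in D69A and 2.08 CPM in WT tumors (5.54-fold lower, adjusted p = 0.00219). Irf1, a transcription factor that acts on a Ciita promoter, was 3.31-fold lower. Irf8 and Spi1, factors of dendritic and myeloid cells, were 5.82-fold and 4.26-fold lower, and Socs1, a feedback inhibitor, 4.78-fold lower. The receptor chain gene Ifngr2 stood at 58.2 CPM in D69A and 58.3 CPM in WT tumors (adjusted p = 0.983). Jak1, Usf2 and Irf4 did not pass. Of 20 alternatives, Jak1 was called lower in 6 (other scalings, DESeq2 and leaving out WT tumor 2 or 4 among them), and Irf4 was called higher in 3 (DESeq2, without D69A tumor 1 and without WT tumor 5).

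**Figure D4:**
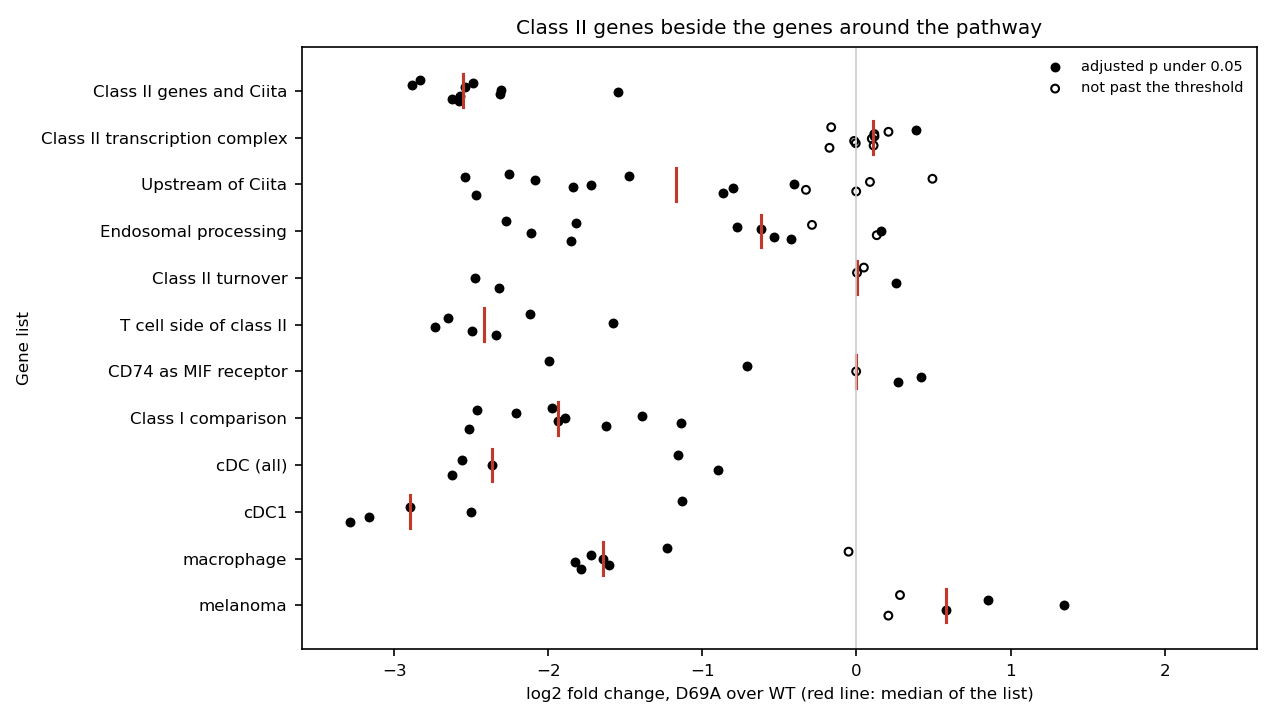
Log2 fold changes, D69A over WT, of the tested genes of 12 lists, with filled points for an adjusted p under 0.05, open points for the rest and a red line at the median of each list. The class II genes lie between -2.88 and -1.55, and the genes of the class II transcription complex lie around 0.

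Endosomal genes that cut the antigen and the invariant chain fell in part. Of 11 tested genes, 8 were lower and 1 higher (24.7% and 18.8% of all tested genes), with a median of -0.62. Ctss, the protease for the last steps of invariant chain cleavage in dendritic and B cells, was 3.62-fold lower (adjusted p = 0.00108), Ctsh 4.32-fold lower and the protease inhibitor gene Cst3 3.53-fold lower. Ctsl, which does this work in thymic epithelium, was 1.34-fold lower (adjusted p = 0.00602). Ctsz was 1.12-fold higher (adjusted p = 0.0165), and Ctsd and Sppl2a, whose product removes the remaining membrane stub of the invariant chain, did not pass (adjusted p = 0.137 and 0.0528). Of 20 alternatives, the call of Ctsz was lost in 4, Sppl2a was called lower in 5 (without WT tumor 2 among them) and Ctsd higher in 1 (without D69A tumor 1).

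Of 5 genes of class II turnover, 2 were lower and 1 higher. Over all tested genes the shares were 24.7% and 18.8%, so these counts do not set the list apart. March1, a ubiquitin ligase that sends class II to lysosomes, was 5.002-fold lower (adjusted p = 0.00116). Cd83, which opposes March1, was 5.56-fold lower (adjusted p = 0.000926). The related ligase gene March8 was 1.19-fold higher (adjusted p = 0.0144), while Ap1m1 did not pass.

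Genes for the T cell side and for costimulation were lower in all 6 tested cases, with a median of -2.42. Cd4, the coreceptor that binds class II, was 5.06-fold lower, and Lag3, an inhibitory receptor that binds it too, 5.65-fold lower. Cd40 and Cd86, costimulatory genes of presenting cells, were 6.65-fold and 6.28-fold lower. The T cell markers, Cd4 among them, were lower in 5 of 5 cases (2.55 to 13.0 CPM summed in D69A, 14.9 to 50.9 CPM in WT). CD74 also serves as a receptor for MIF. Of 5 tested genes of that function 2 were lower (Ackr3, 3.99-fold, and Cxcr4, 1.64-fold) and 2 higher (Ddt, 1.34-fold, and Mif, 1.203-fold, whose call was lost in 10 of 20 alternatives). Counts this small do not set the list apart from all tested genes, of which 24.7% were lower and 18.8% higher.

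Class I genes offer a second presentation pathway for comparison. All 9 tested were lower, with a median of -1.94, from B2m at 2.20-fold to H2-K1 at 5.73-fold. Nlrc5 stood at 21.6 CPM in D69A and 85.3 CPM in WT tumors (3.94-fold lower, adjusted p = 0.000631).

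On chromosome 17, the 8 class II genes of the region span 224.3 kb in mm10, from the start of H2-Oa (34092340) to the end of H2-Eb1 (34316674). Ciita lies on chromosome 16 (10480059 to 10528418) and Cd74 on chromosome 18 (60803848 to 60812652). Of the 5 other genes tested inside the span, 4 were lower: Psmb9 and Psmb8, subunits of the immunoproteasome, by 5.53-fold and 4.63-fold, and Tap1 and Tap2, which pump peptides for class I, by 3.83-fold and 3.71-fold. The fifth was Brd2. In the 250 kb on either side, 6 of 19 tested genes were lower and 2 were higher, with a median of -0.12. Over all tested genes the shares were 24.7% lower and 18.8% higher, so the counts of the flanks do not set them apart. H2-Eb2, a further class II β chain gene, stood at 1.01 CPM in D69A and 6.61 CPM in WT tumors (6.50-fold lower, adjusted p = 0.00722). H2-K1, Tapbp, which loads class I, Daxx, B3galt4 and Notch4 were lower as well, and Col11a2 and Vps52 higher. B3galt4 was low in both groups (0.516 CPM in D69A, 1.217 CPM in WT), and Col11a2 lay close to the threshold (adjusted p = 0.0464).

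**Figure D5:**
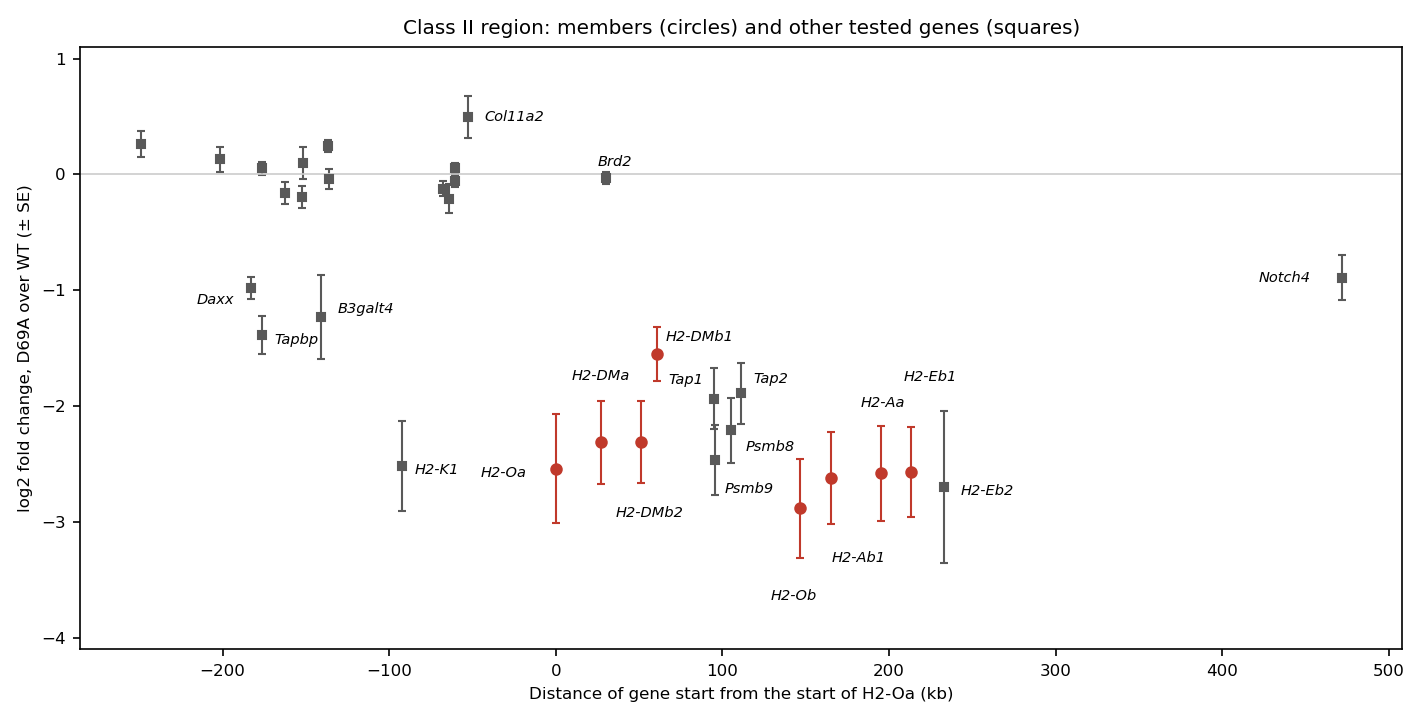
Log2 fold change, D69A over WT, with its SE, of the tested genes in the class II region and 250 kb on either side, against the distance of the gene start from the start of H2-Oa in kb. Red circles are the class II genes of the group and gray squares the other genes. The class II genes lie between -2.88 and -1.55, and Brd2 in their midst at -0.03.

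The genes most like the group were ranked by Pearson r over the 10 tumors after subtraction of the group means, among 12611 genes with a mean of at least 1 CPM. For the mean of the classical chains and Cd74 they were Rnf150 (r = 0.998), Plbd1 (0.996), Napsa (0.994), Clec9a (0.992) and Irf8 (0.991). For Ciita they were Nectin1 (0.989), Cbfa2t3 (0.985), Galnt10, Ifi207 and Mycl (0.983 each). For DO they were Tnfaip8l2 and Cd24a (0.987 each), Rnf150 and Klrk1 (0.985 each) and Traf1 (0.984). Ptprc had r = 0.977 with the classical chains and Cd74, 0.937 with Ciita and 0.940 with DO. These values share libraries and leukocyte content and are a description.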

How the data were processed

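The deposited table held whole-number read counts per Ensembl gene for 10 tumors, and no column was left unassigned. Per the submitters' processing notes, fastp, HISAT, Bowtie, RSEM and build mm10 were used; roles, versions and strand setting were not given in the sources used here. Because RSEM estimates counts, the deposited counts may be rounded. Reads of similar genes can be split between them.

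Symbols and mRNA lengths (principal transcript, for RPKM) came from GENCODE mouse release 21, which matched 17670 of 17737 identifiers. Of these genes, 13798 passed filterByExpr and were tested with edgeR 4.0.16 (R 4.3.3; TMM, quasi-likelihood, adjusted p threshold 0.05). SEs were derived from the F statistic. Ratios used log2(count + 0.5). Ratios to 4 B cell markers were planned and not computed, since none of those 4 had a count in every tumor. Every pair of tumors of a group differed by more than sampling noise (smallest chi-square per degree of freedom 13.85). Floors cover counting error only.

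The genes and lists were chosen with earlier results of these data known. Named from each list were up to 4 genes with the smallest p, genes called against the list, and genes that did not pass in short lists; the text takes a part. Sppl2a, Ctsd, Ctsl, Ifng, Irf8, Cd4, Lag3, Nlrc5, Ifngr2, Jak1, Usf2 and Irf4 are outside it and were picked once their values had been seen. Ifi30 had no match. Some listed genes are not reported here. Alternatives were DESeq2 1.42.0, limma-voom (limma 3.58.1), other scalings and filters, a stricter threshold, the replicate number as a block, other ratio settings, and leaving out tumors.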

Additional observations from a re-analysis of the deposited data

Results flagged for a closer look

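Among 54 groups of 5 tumors examined, 9 (16.7%) were flagged for a tumor with a wide gap to its nearest neighbor. The smallest flagged gap took up 0.7446 of the group's range. At the cut used, which was no higher than that gap, chance would give about 5% if values were normally distributed. Normality was not tested. The genes move together, so these 9 cases are not separate events. In 7 cases it was D69A tumor 1, the highest of its group, at 217.8 CPM for H2-Aa (the other D69A tumors at 67.95 to 103.0), 181.9 CPM for H2-Ab1 (57.0 to 85.28), 178.9 CPM for H2-Eb1 (55.14 to 75.15) and 458.9 CPM for Cd74 (147.9 to 227.3). The same tumor had 17.24 CPM of H2-DMa (6.427 to 9.16), 4.33 CPM of H2-Ob (1.538 to 1.927) and 15.98 CPM of Ciita (3.047 to 5.537). Its Ptprc level was the highest of the D69A tumors as well, at 52.07 CPM.

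WT tumor 5 had the highest log2 ratio of DO to DM, at -2.102, with the other WT tumors between -2.473 and -2.381. WT tumor 2 had the highest log2 ratio of H2-Oa to H2-Ob among WT tumors, at 0.3683, with the others between -0.7037 and -0.492.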

How the results depend on the processing

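All 10 genes stayed lower and past the threshold under all 20 alternatives. Over all genes, 6004 were called, 4966 to 6460 when 1 tumor was left out and 3651 at a threshold of 0.01. The log2 ratio of DO to DM, -0.724, ranged from -0.848 to -0.612 when 1 tumor was left out. It missed the threshold with medians (-0.686, adjusted p = 0.0899) and without the 3 tumors that earlier results gave as highest in muscle markers (-0.867, adjusted p = 0.0607). With the replicate number as a block it was -0.876 (exact p = 0.125, the smallest that 4 pairs allow). The other 8 ratios past the threshold missed it under the same 3 settings, with their direction kept. These settings also raise the smallest p that the test allows, so the misses say little about stability. The ratio of H2-Oa to H2-Ob ranged from -0.074 to 0.32 with 1 tumor left out, and was -0.144 without those 3 tumors and -0.02 with the block. H2-Eb1 to H2-Ab1 ranged from -0.051 to 0.084, and was -0.019 with medians and without the 3 tumors. H2-Aa to H2-Ab1 ranged from -0.008 to 0.079. The cause of these changes was not tested. Deviations of tumors with the same number, 2 to 5, had r of mixed sign (0.177, -0.417, 0.203 and 0.167). D69A tumors 2 and 4 correlated best with the WT tumor of their own number, and D69A tumors 3 and 5 did not. So few values cannot decide whether the numbers mark pairs. The block gave log2 fold changes of -3.49 for Ciita and -3.17 for H2-Oa, and called 5464 genes. Low counts limit H2-Oa in D69A tumors and the B cell markers.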
